A study of Mus musculus with 18 samples.

Results

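The genes described here encode 10 subunits of the Polycomb repressive complexes, a set chosen by gene symbol. They were Ezh1, Ezh2, Eed, Suz12, Jarid2, Mtf2, Phf19, Cbx2, Cbx6 and Cbx7, 10 of the 35773 genes counted in each sample. All 10 passed the filter on low counts (a count of 10 or more in 3 or more samples), as did 16901 genes in all. Expression was measured by RNA-seq of polyA-selected RNA in 6 kinds of mouse pluripotent stem cell, with 3 samples of each and 18 in all.

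All 18 samples carried the same labels for strain (129S2/SvPasCrl) and genotype (wild type), so that by the labels the groups differed only in derivation and medium. ESC were naive embryonic stem cells kept in 2iL, a medium with 2 kinase inhibitors and leukemia inhibitory factor (LIF). EpiLC were epiblast-like cells, a formative state, and EpiSC were epiblast stem cells, a primed state. AFSC were primed cells kept in Activin A and FGF2, which the study's methods derived from blastocysts. ASC, named advanced pluripotent stem cells, were derived from AFSC in ABCL, the study's medium with Activin A, BMP4, the Wnt pathway activator CHIR99021 and LIF. ESC-ASC came from 2iL ESC that were moved to ABCL. The labels did not tie samples to cell lines, and the study's methods describe lines of mixed background with reporter transgenes. P-values therefore measured the spread between these samples. The study describes its transcriptome samples as biological replicates. Whether these were separate lines or separate cultures could not be told, so part of that spread may be technical.

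Polycomb proteins keep developmental genes silent and act in 2 kinds of complex. Polycomb repressive complex 2 (PRC2) places the repressive H3K27me3 mark on histone H3: EZH1 or EZH2 is the methyltransferase, EED and SUZ12 are the core partners without which it is not active, and JARID2 and the Polycomb-like proteins MTF2 and PHF19 are accessory subunits that help it to its sites. Canonical Polycomb repressive complex 1 (PRC1) compacts chromatin and contains 1 CBX protein, such as CBX2, CBX6 or CBX7, whose chromodomain can read the PRC2 mark. In mouse embryonic stem cells the complexes sit mainly at CpG-rich promoters of lineage genes, and CBX7 is known as the main CBX protein of the undifferentiated state.

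Total gene counts were between 4961934 and 9906473 in 15 samples and between 17813619 and 18071600 in the 3 ESC-ASC samples, which also came from a separate run of the authors' counting, so that depth, run and group cannot be told apart there. Core pluripotency genes were above 10 counts in every sample, but their levels differed between groups. Sox2 averaged 76.1 in EpiSC against 2329 in ESC, and Nanog 220 in EpiLC against 4109 in ESC. Pou5f1 averaged between 4853 in ESC-ASC and 8089 in EpiSC. The summed level of 6 naive markers was 2819 to 4878 in ESC, ASC and ESC-ASC but 9.02 to 120.6 in EpiLC, AFSC and EpiSC. Of the markers of other cells, 5 trophoblast genes summed to 150 to 162 in ESC-ASC and 48.2 to 70.8 in ASC against 14.2 to 29.3 in the other groups, and 5 primitive endoderm genes summed to 64.9 to 65.5 in EpiSC against at most 22.8 elsewhere. The members of these lists did not move together: Ascl2 alone was at 135.5 to 146.2 in ESC-ASC, where Elf5 and Tpbpa had no count and Gata3 was at 0.169 against 5.03 in ESC and 13.6 in ASC. The EpiSC sum was mostly Sox17 (34.6) and Gata6 (26.5), while Gata4 (1.53), Sox7 (0.318) and Dab2 (2.27) were each lower there than in at least 1 other group. The 6 fibroblast genes summed to between 17.1 and 116.8, and the part of these markers in the results was not tested. In each group 1 sample stood apart from the other 2: replicate 1 of ASC, AFSC, EpiLC and ESC, and replicate 2 of EpiSC and ESC-ASC. Mitochondrial genes took 14.5% of the counts in AFSC replicate 1, 8.08% in ESC replicate 1 and 3.48% in ASC replicate 1, but at most 2.92% in the other samples of those groups. AFSC replicate 1 was below both other AFSC samples for 6 members and above both for 4. Eed was there at 0.551, Ezh1 at 0.677, Ezh2 at 0.697 and Cbx2 at 0.707 times the mean level of the other AFSC samples. Mtf2 was at 1.96 and Suz12 at 1.43 times theirs. Eed, Ezh2, Mtf2, Suz12 and Cbx2 leaned the same way in ESC replicate 1 and ASC replicate 1. The lean was slight for Suz12 in ESC (1.03) and Ezh2 in ASC (0.957), and Cbx2 was at 0.681 in ESC and 0.866 in ASC. Ezh1 was at 0.724 in ESC replicate 1 but 1.02 in ASC replicate 1. The results for these genes are therefore given with and without the samples that stood apart where the call changed.

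Levels below are counts divided by the size factor of the sample and by the exonic length of the gene in kb, as mean ± SD of 3 samples. Comparison between genes is approximate, because the length of the transcripts in use was not measured. The RNA came from whole cultures, where fewer cells that express a gene and less RNA per cell cannot be told apart. Differences were tested with the edgeR quasi-likelihood test across all 16901 genes, and a gene is called where its Benjamini-Hochberg adjusted p was below 0.05. All 10 genes differed among the 6 groups (10 of 10, where 94.4% of all genes tested were called), and for all 10 the highest group mean was at least 2-fold above the lowest, as it was for 80.1% of all genes tested. Over the 15 pairs of groups, 105 of 150 member comparisons were called, which is 10 genes in each pair; over all genes 57.9% were called.

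**Figure D1:**
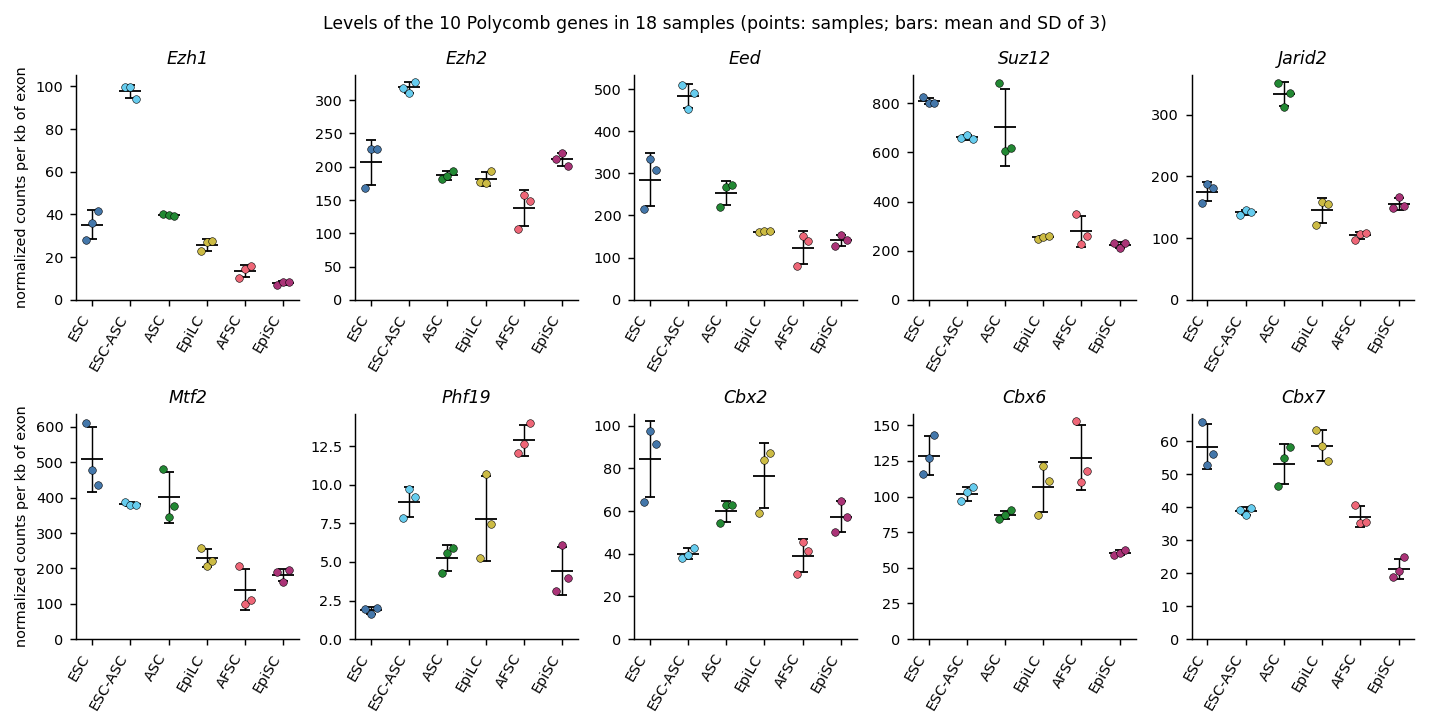
Level of each of the 10 genes (normalized counts per kb of exon, linear axis from 0, its own scale in each panel) in the 18 samples. Points are samples, drawn from left to right as replicates 1 to 3, and the bars give the mean and SD of the 3; Ezh1, Ezh2 and Eed peak in ESC-ASC, Jarid2 peaks in ASC, and Suz12 and Mtf2 are high in ESC, ESC-ASC and ASC and low in EpiLC, AFSC and EpiSC.

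Ezh1 with Eed and Suz12 with Mtf2 were the 2 pairs of members whose levels were most alike over the 18 samples, with a Pearson correlation of log2 levels of 0.911 and 0.905. The samples share groups and sequencing depth, so these values are descriptions. The 250 bases before the RefSeq start of each of the 4 genes are shown 5′ to 3′ on the gene's strand (GRCm38.p6, from RefSeq): chr11:101226464-101226713 on the minus strand for Ezh1, chr7:89980977-89981226 on the minus strand for Eed, chr11:79992856-79993105 on the plus strand for Suz12 and chr5:108065424-108065673 on the plus strand for Mtf2. Capitals mark matches on either strand to GGGCGG (the SP/KLF letters) or CCAAT (the NF-Y letters).
Ezh1: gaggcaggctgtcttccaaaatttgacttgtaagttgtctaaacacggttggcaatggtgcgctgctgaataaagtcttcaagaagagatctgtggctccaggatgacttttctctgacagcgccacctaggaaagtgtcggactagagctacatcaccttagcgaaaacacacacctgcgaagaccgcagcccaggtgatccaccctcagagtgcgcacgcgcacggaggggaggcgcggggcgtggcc
Eed: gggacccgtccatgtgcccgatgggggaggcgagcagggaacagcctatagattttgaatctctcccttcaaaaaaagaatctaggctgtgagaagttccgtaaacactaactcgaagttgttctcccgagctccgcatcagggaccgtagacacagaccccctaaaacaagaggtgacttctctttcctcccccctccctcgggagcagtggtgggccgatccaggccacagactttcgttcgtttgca
Suz12: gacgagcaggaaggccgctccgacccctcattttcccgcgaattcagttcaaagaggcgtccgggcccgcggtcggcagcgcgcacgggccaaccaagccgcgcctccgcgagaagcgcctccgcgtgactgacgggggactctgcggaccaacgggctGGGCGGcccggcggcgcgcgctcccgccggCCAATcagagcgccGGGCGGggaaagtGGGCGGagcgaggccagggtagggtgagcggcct
Mtf2: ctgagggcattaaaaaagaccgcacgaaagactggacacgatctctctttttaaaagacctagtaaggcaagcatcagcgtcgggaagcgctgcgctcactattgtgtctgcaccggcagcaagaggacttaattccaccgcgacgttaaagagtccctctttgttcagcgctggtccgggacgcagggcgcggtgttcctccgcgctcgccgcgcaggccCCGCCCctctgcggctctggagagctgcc

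The window of Suz12 held 37 CpG pairs and that of Mtf2 held 23, against 14 for Ezh1, 12 for Eed and a median of 6 over 32841 such windows of the genome. Suz12 had 3 matches to GGGCGG and 1 to CCAAT, Mtf2 had 1 match to GGGCGG, and Ezh1 and Eed had neither. Of all windows, 32.7% held GGGCGG and 33.9% held CCAAT, so a match is common. None of the 4 windows matched CCGGAAGT (ETS), TGACGTCA (CRE), CACGTG (E-box) or GGCGGGAA (E2F) on either strand, letters found in 2.88%, 1.55%, 6.02% and 1.85% of windows. GGGCGG and the E2F letters can overlap.

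Ezh1 (chromosome 11, 101191115 to 101226463, minus strand, GRCm38), the methyltransferase usually linked to non-dividing cells, had the widest range of the members. Its levels in replicates 1 to 3 were 99.5, 99.5 and 93.9 in ESC-ASC, 40.2, 39.6 and 39.2 in ASC, and 28.1, 36.0 and 41.5 in ESC. They were 22.7, 27.0 and 27.6 in EpiLC, 10.3, 14.6 and 15.9 in AFSC, and 6.88, 8.41 and 8.47 in EpiSC. Every ESC-ASC sample was above every sample of the other groups, every EpiSC sample was below them, and ESC and ASC overlapped. The means spanned 12.3-fold, from 97.7 ± 3.24 in ESC-ASC to 7.92 ± 0.901 in EpiSC. Along this order each step was called apart from ASC over ESC (log2 fold change 0.14, 95% interval -0.19 to 0.47, adjusted p = 0.485). The step from ESC to EpiLC (0.45 ± 0.16 SE, adjusted p = 0.0224) lost its call without EpiLC replicate 1, ESC replicate 2 or ESC replicate 3.

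Ezh2 (chromosome 6, 47530139 to 47595341, minus strand), the methyltransferase of dividing cells, varied less. In ESC-ASC its levels were 319, 311 and 328, above all other samples. The ESC samples were at 168, 227 and 226 and the EpiSC samples at 211, 221 and 202. Those of ASC were at 181, 186 and 194, those of EpiLC at 177, 175 and 194, and those of AFSC at 107, 158 and 148. EpiSC, ESC, ASC and EpiLC followed each other in the order of means with no called step, the largest being ESC over ASC (0.17, 95% interval -0.13 to 0.47). AFSC was lowest at 138 ± 27.2, and its difference from EpiLC (0.40 ± 0.14 SE, adjusted p = 0.0277) passed the test. This step was not examined without AFSC replicate 1, the lowest AFSC sample. The call of Ezh2 in ASC against AFSC was lost without that sample.

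The share of Ezh1 in the summed level of the 2 methyltransferase genes therefore differed between cultures. It was 23.4% ± 1.02 in ESC-ASC, 17.5% ± 0.64 in ASC and 14.5% ± 0.931 in ESC. It was 12.4% ± 1.01 in EpiLC, 8.99% ± 0.619 in AFSC and 3.62% ± 0.443 in EpiSC. No 2 groups overlapped in this share, and Ezh2 made up most of the sum in every sample.

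Eed (chromosome 7, 89954654 to 89980983, minus strand) encodes the subunit that binds the H3K27me3 mark itself and stimulates the enzyme. Its levels were 510, 452 and 490 in ESC-ASC, 214, 334 and 307 in ESC, and 219, 268 and 272 in ASC. They were 160, 162 and 163 in EpiLC, 128, 153 and 142 in EpiSC, and 80.2, 152 and 139 in AFSC. ESC-ASC lay above all other samples, ESC and ASC overlapped, and all 9 samples of the remaining groups lay below them. The steps from ESC-ASC to ESC (0.74 ± 0.19 SE, adjusted p = 0.00231) and from ASC to EpiLC (0.62 ± 0.19 SE, adjusted p = 0.00963) were called, while no difference among EpiLC, EpiSC and AFSC was called, although each EpiLC sample lay above each EpiSC and AFSC sample.

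Suz12 (chromosome 11, 79993106 to 80034123, plus strand), which holds the PRC2 core together, took 2 levels. It was at 825, 803 and 800 in ESC, 883, 606 and 620 in ASC, and 658, 671 and 654 in ESC-ASC. It was at 349, 228 and 259 in AFSC, 247, 255 and 260 in EpiLC, and 233, 210 and 230 in EpiSC. The 9 samples of the first 3 groups ranged from 606 to 883 and the 9 of the others from 210 to 349, with no overlap. Between the blocks the smallest step, ESC-ASC over AFSC, was 1.23 ± 0.16 SE (adjusted p = 1.23e-06). Within the blocks no neighbouring step was called, and the largest was 0.22 for ESC over ASC (95% interval -0.10 to 0.55).

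Jarid2 (chromosome 13, 44729474 to 44921643, plus strand), the accessory subunit that also binds the PRC2 core as a methylated mimic of the histone tail, was highest in ASC. The ASC samples were at 351, 313 and 336, whereas all 15 others were at 187 or below. ESC was at 158, 187 and 182, EpiSC at 149, 167 and 152, and EpiLC at 122, 158 and 155. ESC-ASC was at 138, 146 and 142, and AFSC at 97.3, 107 and 109. ASC was the sole group without overlap at the top and AFSC the sole one at the bottom. The means spanned 3.19-fold. ASC exceeded ESC, the next group, by 0.90 ± 0.13 SE (adjusted p = 1.02e-05), and the steps through ESC, EpiSC, EpiLC and ESC-ASC were not called.

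Mtf2 (chromosome 5, 108065674 to 108109004, plus strand) encodes the Polycomb-like protein that binds unmethylated CpG-rich DNA, and had the same 2 blocks as Suz12. It was at 611, 479 and 436 in ESC, 482, 345 and 376 in ASC, and 389, 380 and 378 in ESC-ASC. It was at 258, 208 and 221 in EpiLC, 189, 161 and 194 in EpiSC, and 208, 101 and 111 in AFSC. The lowest sample of the first 3 groups was 345 and the highest of the others 258. ESC-ASC exceeded EpiLC, the nearest group across the gap, by 0.72 ± 0.21 SE (adjusted p = 0.00542). No other step was called, and replicate 1 was the highest sample in every group but EpiSC.

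Phf19 (chromosome 2, 34893757 to 34914026, minus strand), the Polycomb-like protein known for reading the H3K36me3 mark, was the least abundant member. The raw counts were 5, 7 and 9 in ESC, 20, 27 and 27 in ASC, and 12, 35 and 21 in EpiSC. They were 23, 61 and 35 in EpiLC, 45, 55 and 68 in AFSC, and 78, 100 and 92 in the deeper ESC-ASC samples. ESC was below every other sample and AFSC above every other sample: the levels were 1.85 ± 0.207 in ESC, 5.24 ± 0.845 in ASC, 8.90 ± 0.965 in ESC-ASC and 12.9 ± 1.0 in AFSC. EpiLC at 7.81 ± 2.74 and EpiSC at 4.41 ± 1.54 lay between with wide spreads. The means spanned 6.95-fold. ESC was the highest group for Mtf2 and the lowest for Phf19, AFSC was the reverse, and EpiSC was next to lowest for both; the correlation of the 2 genes over the 18 samples was -0.603. At 5 to 9 counts the ESC level is known only coarsely, and the SE of its log2 fold change against ESC was 0.32 or more in every comparison.

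The 3 Polycomb-like genes, Mtf2, Phf19 and Phf1, which is not a member, divided their summed level differently. Mtf2 held 94.3% ± 1.20 in ESC-ASC, 91.4% ± 1.45 in ASC, 87.6% ± 1.60 in ESC and 85.9% ± 2.17 in EpiLC, but 73.9% ± 2.32 in EpiSC and 71.6% ± 3.99 in AFSC. Phf19 held 7.28% ± 2.50 in AFSC and at most 3.0% ± 1.26 elsewhere. Phf1 held 24.3% ± 3.23 in EpiSC and 21.1% ± 2.04 in AFSC, against 3.46% ± 1.01 in ESC-ASC. These shares depend on the division by exonic length: from counts alone Phf1 held 12.1% ± 1.83, 10.3% ± 1.17 and 1.51% ± 0.452 in the same groups, and Mtf2 held 82.2% ± 3.42 in AFSC.

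Among the CBX genes, Cbx7 (chromosome 15, 79915807 to 79971119, minus strand) was at 63.2, 58.6 and 53.9 in EpiLC, 65.9, 52.8 and 56.1 in ESC, and 46.2, 54.7 and 58.2 in ASC. It was at 39.2, 37.5 and 39.8 in ESC-ASC, 40.7, 35.1 and 35.5 in AFSC, and 18.8, 20.5 and 24.7 in EpiSC. The first 3 groups overlapped, ESC-ASC overlapped AFSC, and EpiSC was below all other samples. The called steps were ASC over ESC-ASC (0.44 ± 0.13 SE, adjusted p = 0.00846) and AFSC over EpiSC (0.80 ± 0.14 SE, adjusted p = 0.000124).

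Cbx2 (chromosome 11, 119022962 to 119031270, plus strand), the CBX protein that compacts chromatin and is known for its part in gonad development, was at 64.3, 97.3 and 91.5 in ESC and 58.9, 84.0 and 87.0 in EpiLC. It was at 54.2, 62.7 and 62.6 in ASC and 50.2, 64.6 and 57.2 in EpiSC. It was at 38.0, 39.4 and 42.8 in ESC-ASC and 30.7, 45.7 and 41.1 in AFSC. ESC-ASC and AFSC overlapped each other and lay below all samples of the other 4 groups, and the step from EpiSC to ESC-ASC was the sole one called (0.53 ± 0.18 SE, adjusted p = 0.0155). Replicate 1 was the lowest sample in ESC, EpiLC, ASC, EpiSC, AFSC and ESC-ASC alike.

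Cbx6 (chromosome 15, 79823896 to 79834688, minus strand), a less studied CBX protein, had the narrowest range, 2.12-fold. It was at 116, 127 and 143 in ESC, 153, 110 and 118 in AFSC, and 87.1, 121 and 111 in EpiLC. It was at 96.8, 103 and 106 in ESC-ASC, 84.6, 87.0 and 90.3 in ASC, and 59.2, 60.1 and 62.7 in EpiSC. EpiSC lay below all other samples, and ASC over EpiSC was the sole called step (0.51 ± 0.14 SE, adjusted p = 0.00395).

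**Figure D2:**
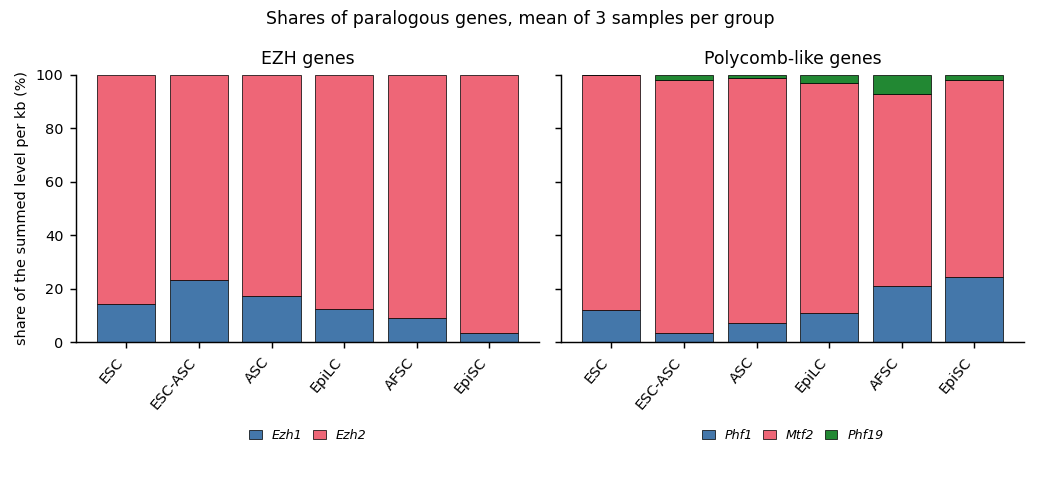
Share (%, axis from 0 to 100) of each gene in the summed level per kb of its family: Ezh1 and Ezh2 (left), and the Polycomb-like genes Phf1, Mtf2 and Phf19 (right). Bars are means of 3 samples per group; Ezh1 runs from 23.4% in ESC-ASC to 3.62% in EpiSC, and Mtf2 from 94.3% in ESC-ASC to 71.6% in AFSC.

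Counting did not use strand, and exons of 6 members overlap those of another gene, over 6.93% of the exonic length of Mtf2 (Tmed5), 6.82% of Eed (E230029C05Rik), 3.60% of Suz12 (Gm26563), 2.61% of Ezh2 (Gm26625) and 1.54% of Cbx7 (Apobec3), all on opposite strands, and over 8.95% of Cbx6 (Npcd) on the same strand. Reads there cannot be told apart.

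ASC against ESC asks how the advanced cells differ from naive cells that share their naive markers. Jarid2 (log2 fold change 0.90 ± 0.13 SE, adjusted p = 1.02e-05) and Phf19 (1.47 ± 0.35 SE, adjusted p = 0.00197) were higher in ASC, and Cbx6 (-0.58 ± 0.14 SE, adjusted p = 0.00226) and Cbx2 (-0.53 ± 0.19 SE, adjusted p = 0.0238) were lower. These 2 higher and 2 lower members, 4 of 10, compare with 50.3% of all genes called, 26.4% higher and 23.9% lower. The core PRC2 genes had intervals that reached from -0.60 to 0.20 for Eed, -0.55 to 0.10 for Suz12 and -0.47 to 0.13 for Ezh2. Without the sample that stood apart in each group 8 members were called, 2 higher and 6 lower, adding Ezh2, Eed, Suz12 and Mtf2 on the lower side. The call of Cbx2 was lost without ASC replicate 1, ESC replicate 2 or ESC replicate 3, and also in a fit of the 2 groups alone.

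ASC against AFSC compares the advanced cells with the primed cells they were derived from. All 10 members were called, 8 higher in ASC and 2 lower, where 64.0% of all genes were called, 32.8% higher and 31.2% lower. Jarid2 rose by 1.65 ± 0.13 SE, a 3.14-fold difference (adjusted p = 2.13e-09), Ezh1 by 1.51 ± 0.17 SE, Mtf2 by 1.5 ± 0.21 SE, Suz12 by 1.31 ± 0.16 SE and Eed by 1.0 ± 0.19 SE. Smaller rises were those of Cbx2 (0.58), Cbx7 (0.49) and Ezh2 (0.41). Phf19 fell by 1.32 ± 0.26 SE on the log2 scale (adjusted p = 0.000241) and Cbx6 fell by 0.57 ± 0.14 SE. In each of the 10 the 3 ASC samples did not overlap the 3 AFSC samples, as in 62.6% of all genes. Without AFSC replicate 1, the sample with the high mitochondrial share, the calls of Ezh2 and Cbx2 were lost, that of Ezh2 also in a fit of the 2 groups alone. The median change of the members was 0.79, against 0.02 over all genes.

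EpiLC against ESC and EpiSC against ESC follow the members out of the naive state, against the same 3 ESC samples. In EpiLC 5 members were called, 1 higher and 4 lower, where 55.3% of all genes were, 28.7% higher and 26.6% lower. Suz12 fell by 1.66 ± 0.16 SE (adjusted p = 3.72e-08), Mtf2 by 1.14 ± 0.21 SE, Eed by 0.82 ± 0.19 SE and Ezh1 by 0.45 ± 0.16 SE, and Phf19 rose by 2.09 ± 0.33 SE. Ezh2 changed by -0.18 (95% interval -0.48 to 0.12) and Cbx7 by 0.02 (-0.25 to 0.30), and neither was called. Without the sample that stood apart in each group, Ezh2 was called lower in EpiLC (-0.27, edgeR adjusted p = 0.00725), and so was Jarid2 (-0.20, adjusted p = 0.0281, against -0.27 and 0.0738 with all samples). In EpiSC 8 members were called, 7 lower and 1 higher, where 61.2% of all genes were, 32.0% lower and 29.2% higher. Ezh1 fell by 2.16 ± 0.18 SE (4.47-fold, adjusted p = 2.91e-09), Suz12 by 1.86 ± 0.16 SE, Mtf2 by 1.49 ± 0.21 SE, Cbx7 by 1.45 ± 0.14 SE, Cbx6 by 1.10 ± 0.14 SE, Eed by 1.03 ± 0.19 SE and Cbx2 by 0.57 ± 0.19 SE. Phf19 was again higher, by 1.27 ± 0.36 SE. The call of Cbx2 in EpiSC was lost without EpiSC replicate 1 or ESC replicate 2. Ezh2 at 0.02 (-0.28 to 0.32) and Jarid2 at -0.19 (-0.45 to 0.08) were not called, but Jarid2 was without the samples that stood apart (-0.27, adjusted p = 0.00394).

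EpiLC and EpiSC themselves differed in 4 members, all lower in EpiSC, where 48.6% of all genes were called, 27.0% lower and 21.5% higher. Ezh1 (-1.71 ± 0.18 SE), Cbx7 (-1.47 ± 0.14 SE), Cbx6 (-0.83 ± 0.14 SE) and Phf19 (-0.82 ± 0.27 SE) were the 4. Suz12 (-0.20, 95% interval -0.52 to 0.13), Eed (-0.22, -0.62 to 0.19) and Mtf2 (-0.35, -0.79 to 0.09) were not called.

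AFSC against EpiSC compares 2 primed cultures. Of the members 7 were called, 4 higher in AFSC and 3 lower, where 39.4% of all genes were, 21.6% higher and 17.8% lower. Phf19 was higher by 1.53 ± 0.27 SE (adjusted p = 0.000139), Cbx6 by 1.08 ± 0.14 SE, Cbx7 by 0.80 ± 0.14 SE and Ezh1 by 0.79 ± 0.18 SE. Ezh2 was lower by -0.60 ± 0.14 SE, Jarid2 by -0.56 ± 0.13 SE and Cbx2 by -0.54 ± 0.19 SE, the call of Cbx2 being lost in 5 alternatives, among them the fits without AFSC replicate 1 or EpiSC replicate 2. Suz12, Eed and Mtf2 were not called, with 95% intervals of 0.0027 to 0.65, -0.57 to 0.24 and -0.80 to 0.08. Mtf2, at -0.36, was called lower in AFSC without AFSC replicate 1 (-0.76, adjusted p = 0.00126) and without the sample that stood apart in each group (-0.86, adjusted p = 8.68e-08). Suz12, at 0.33, was called higher without AFSC replicate 2 (0.45, adjusted p = 0.0365) or without ASC replicate 1 (0.33, adjusted p = 0.0403).

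**Figure D3:**
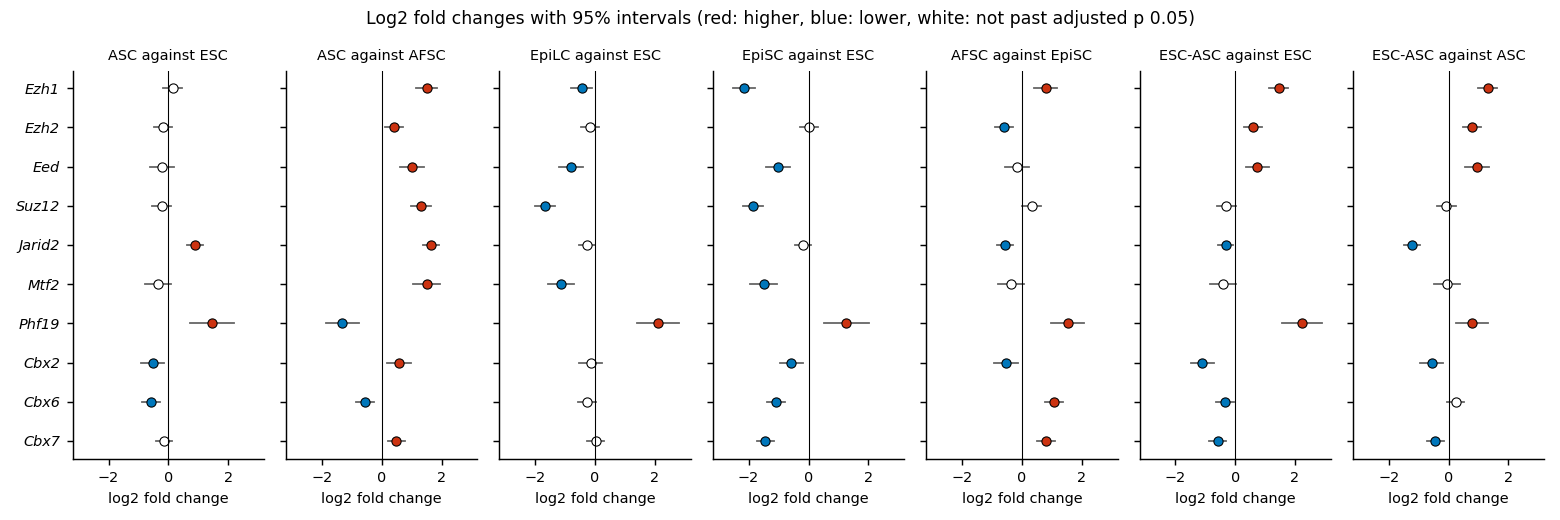
Log2 fold change (x axis, first group over second) of the 10 genes in 7 comparisons, with 95% intervals as lines. Red points are called higher and blue points called lower (edgeR adjusted p below 0.05), and white points are not called; ASC against AFSC is the comparison with all 10 called.

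ESC-ASC against ESC and ESC-ASC against ASC ask what the move to ABCL did to naive cells and whether the cells reached the ASC level. Against ESC 8 members were called, 4 higher and 4 lower, where 60.1% of all genes were called, 30.6% higher and 29.6% lower. Phf19 rose by 2.24 ± 0.32 SE (adjusted p = 6.71e-06), Ezh1 by 1.45 ± 0.16 SE, Eed by 0.74 ± 0.19 SE and Ezh2 by 0.61 ± 0.14 SE. Cbx2 fell by 1.10 ± 0.18 SE (adjusted p = 4.45e-05), Cbx7 by 0.59 ± 0.13 SE, Cbx6 by 0.35 ± 0.14 SE and Jarid2 by 0.32 ± 0.12 SE. The calls of Cbx6 and Jarid2 were lost in 6 alternatives each, among them the fit without a filter on low counts. Suz12 (-0.30 ± 0.15 SE, adjusted p = 0.0947) and Mtf2 (-0.42 ± 0.21 SE, adjusted p = 0.0875) were not called, but were in 4 alternatives each, among them the fits without AFSC replicate 1 and without the sample that stood apart in each group (-0.23 for Suz12 and -0.20 for Mtf2). In all 10 members the ESC-ASC and ESC samples did not overlap, as in 69.8% of all genes.

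Against ASC 7 members were called, 4 higher and 3 lower, where 50.7% of all genes were, 23.0% higher and 27.7% lower. Ezh1 was higher in ESC-ASC by 1.31 ± 0.15 SE (adjusted p = 1.48e-06), Eed by 0.94 ± 0.19 SE, Ezh2 by 0.78 ± 0.14 SE and Phf19 by 0.77 ± 0.26 SE. Jarid2 was lower by -1.23 ± 0.13 SE (adjusted p = 2.46e-07), Cbx2 by -0.57 ± 0.18 SE and Cbx7 by -0.44 ± 0.13 SE. The call of Phf19 was lost without ASC replicate 1 or ESC-ASC replicate 2, and that of Cbx2 without ESC-ASC replicate 1. Suz12 at -0.08 (95% interval -0.40 to 0.24) and Mtf2 at -0.06 (-0.49 to 0.37) were not called. Cbx6, at 0.23, was called without the samples that stood apart (adjusted p = 0.038). Thinning the ESC-ASC counts to the depth of the other samples left these counts of calls at 8 and 7.

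The change in ABCL from AFSC and the change in ABCL from ESC share no samples and were compared directly by the difference of the 2 log2 fold changes. For 6 members the difference was called, 5 higher and 1 lower, where 58.5% of all genes were, 30.8% higher and 27.7% lower. It was 1.97 ± 0.18 SE for Jarid2, 1.92 ± 0.30 SE for Mtf2, 1.68 ± 0.26 SE for Cbx2, 1.61 ± 0.22 SE for Suz12 and 1.08 ± 0.19 SE for Cbx7, all in the direction of a higher value from AFSC, and -3.57 ± 0.41 SE for Phf19. For Ezh1 it was 0.06 (95% interval -0.41 to 0.53), for Eed 0.26 (-0.30 to 0.82), for Ezh2 -0.19 (-0.62 to 0.23) and for Cbx6 -0.22 (-0.63 to 0.20), none called. Jarid2, Cbx2 and Cbx7 were called higher in ASC than in AFSC and lower in ESC-ASC than in ESC, and Phf19 the reverse. For Suz12 and Mtf2 the 2 ABCL groups were near each other (-0.08 and -0.06 in ESC-ASC against ASC, not called). AFSC against ESC, the starting cells, was -1.53 ± 0.16 SE and -1.86 ± 0.22 SE for these 2 genes, so their difference lay mostly in the starting levels. Jarid2, Cbx2, Cbx7 and Phf19 were called both in ESC-ASC against ASC and in AFSC against ESC. For Phf19 AFSC against ESC was 2.8 and ESC-ASC against ASC 0.77, so the starting levels were the larger part of its difference. They were also the larger part for Cbx2 (-1.11 and -0.57) and Cbx7 (-0.64 and -0.44), but not for Jarid2 (-0.75 and -1.23). ESC-ASC was the group counted in a separate run, and the group with the highest Ascl2; the part of the run in these differences was not tested.

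**Figure D4:**
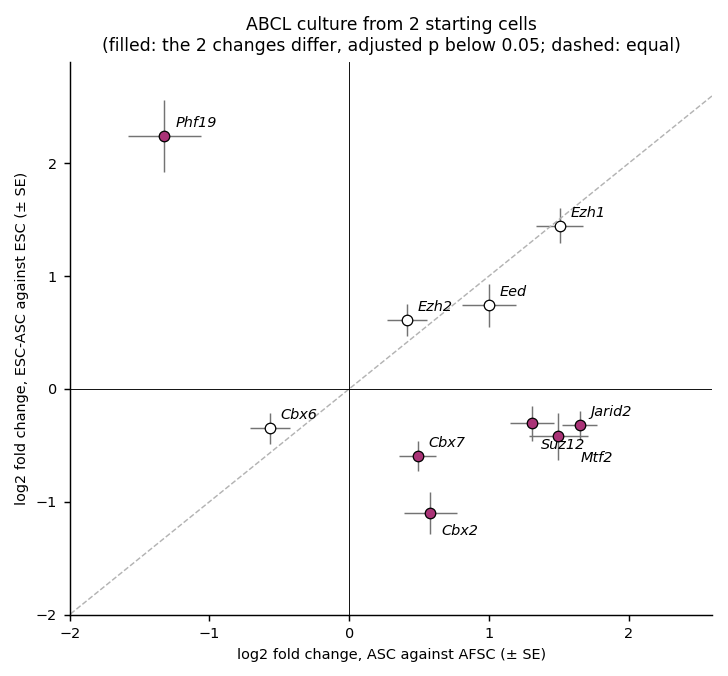
Log2 fold change of each gene in ASC against AFSC (x axis) and in ESC-ASC against ESC (y axis), with SE as bars; the dashed line marks equal change. Filled points are the 6 genes whose difference between the 2 changes was called; Ezh1, Ezh2, Eed and Cbx6, the open points, lie near the line.

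Of the other genes of the Polycomb system 36 are described, and all 36 were tested: 7 PRC2 genes, the 2 catalytic PRC1 genes Ring1 and Rnf2, 8 further genes of canonical PRC1, 13 of variant PRC1, and 6 genes of opposing enzymes. Their counts are given beside the share of all genes called in the same comparison. In ASC against ESC 23 were called (13 higher, 10 lower, 50.3% of all genes), in ASC against AFSC 28 (20 higher, 8 lower, 64.0%), in EpiLC against ESC 27 (7 higher, 20 lower, 55.3%) and in EpiSC against ESC 20 (9 higher, 11 lower, 61.2%). In AFSC against EpiSC 18 were called (4 higher, 14 lower, 39.4%), in ESC-ASC against ESC 26 (8 higher, 18 lower, 60.1%) and in ESC-ASC against ASC 19 (4 higher, 15 lower, 50.7%). Their median change was -0.46 in EpiLC against ESC and 0.38 in ASC against AFSC, where the medians over all genes were 0.06 and 0.02. In EpiLC against ESC the 8 further canonical PRC1 genes were each called, 7 of them lower, where 26.6% of all genes were lower; the members Cbx2 (-0.14), Cbx6 (-0.27) and Cbx7 (0.02), which belong to the same complex, were not called.

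Among the PRC2 genes, Epop, whose product links PRC2 to elongin and tempers its binding, was at 1728, 2965 and 2837 in ASC and 1715, 2233 and 2224 in ESC, but at 451, 395 and 413 in ESC-ASC. It was at 454 to 554 in EpiLC, 233 to 269 in EpiSC and 142 to 210 in AFSC. ESC and ASC were above all other samples, and Epop was lower in ESC-ASC than in ASC by -2.57 ± 0.19 SE (adjusted p = 6.11e-09) and in EpiSC than in ESC by -3.04 ± 0.20 SE (adjusted p = 1.2e-10). Aebp2, an accessory subunit of the JARID2 form of PRC2, was at 175, 177 and 174 in ESC and at most 91.5 in the other 15 samples, with a fall of -1.72 ± 0.11 SE in EpiLC (adjusted p = 1.23e-10). Phf1 was lower in ESC-ASC than in ESC by -2.32 ± 0.27 SE, at 11.2 to 18.9 against 51.4 to 98.1, and in ASC than in ESC by -1.16 ± 0.27 SE. Rbbp4, the histone-binding subunit, was higher in ESC-ASC than in ASC by 0.55 ± 0.15 SE.

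Ezhip, which encodes an inhibitor of PRC2, was at 57.4, 95.3 and 79.7 in ASC, at 29.7 to 39.4 in EpiLC and at 10.6 or less in ESC, ESC-ASC and AFSC. No count was found in the 3 EpiSC samples, where up to 3 counts per sample are allowed by a count of 0. Scml2, a canonical PRC1 partner known from the male germ line, was at 171, 139 and 123 in ASC and at 11.9 or less in every other sample, and was higher in ASC than in ESC by 4.0 ± 0.24 SE (adjusted p = 2.73e-10). Both genes lie on the X chromosome, where the median change of 641 genes was 1.03 in ASC against ESC, 0.85 in ASC against AFSC and -0.91 in ESC-ASC against ASC, against -0.0042, 0.00095 and -0.023 for the autosomes. Rbbp7, Bcor, Bcorl1 and Kdm6a, also counted among the other Polycomb genes, lie on the X chromosome too. Their mean levels were 1344, 110.5, 39.2 and 90.8 in ASC against 651.8, 73.3, 14.8 and 62.6 in ESC. The counts of other Polycomb genes called include these X-linked genes, and the part of the X-wide shift in those counts was not tested. None of the 10 members lies on the X chromosome, but whether their levels go with the X-wide shift was not tested.

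Of the PRC1 genes, Cbx8 was at 14.5, 13.9 and 21.9 in ESC and 5.37 or less in the other samples. It was lower in EpiSC than in ESC by -3.80 ± 0.37 SE, and had 1 to 3 counts per sample in AFSC. Yaf2, a variant PRC1 subunit, ran the other way, at 273, 240 and 269 in EpiSC against 19.4 ± 0.696 in ESC (3.73 ± 0.19 SE, adjusted p = 2.17e-12), and E2f6, the DNA-binding subunit of a variant complex, was at 223 to 286 in EpiSC against 31.7 to 59.1 in ESC. Pcgf5, which defines another variant complex, was at 99.5 to 109 in ASC and 119 to 140 in ESC-ASC, the 2 ABCL groups, and at 36.8 or less in the other 12 samples. Pcgf1 was highest in ESC at 122 to 225, and was lower in ASC by -2.10 ± 0.26 SE.

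Further genes named by size of change were Ring1 (-1.38 ± 0.19 SE in ASC against AFSC), Bcor (-1.80 ± 0.18 SE) and Phc2 (-1.66 ± 0.12 SE) in AFSC against EpiSC, Phc3 (1.06 ± 0.22 SE in ESC-ASC against ESC) and Rnf2 (0.46 ± 0.13 SE in ESC-ASC against ASC). Asxl3, a partner of the H2A deubiquitinase BAP1, had 0, 2 and 2 counts in ESC, 6 to 12 in ESC-ASC, 8 to 24 in EpiLC, 9 to 21 in ASC, 22 to 36 in AFSC and 34 to 38 in EpiSC, and no fold is given against so few counts.

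**Figure D5:**
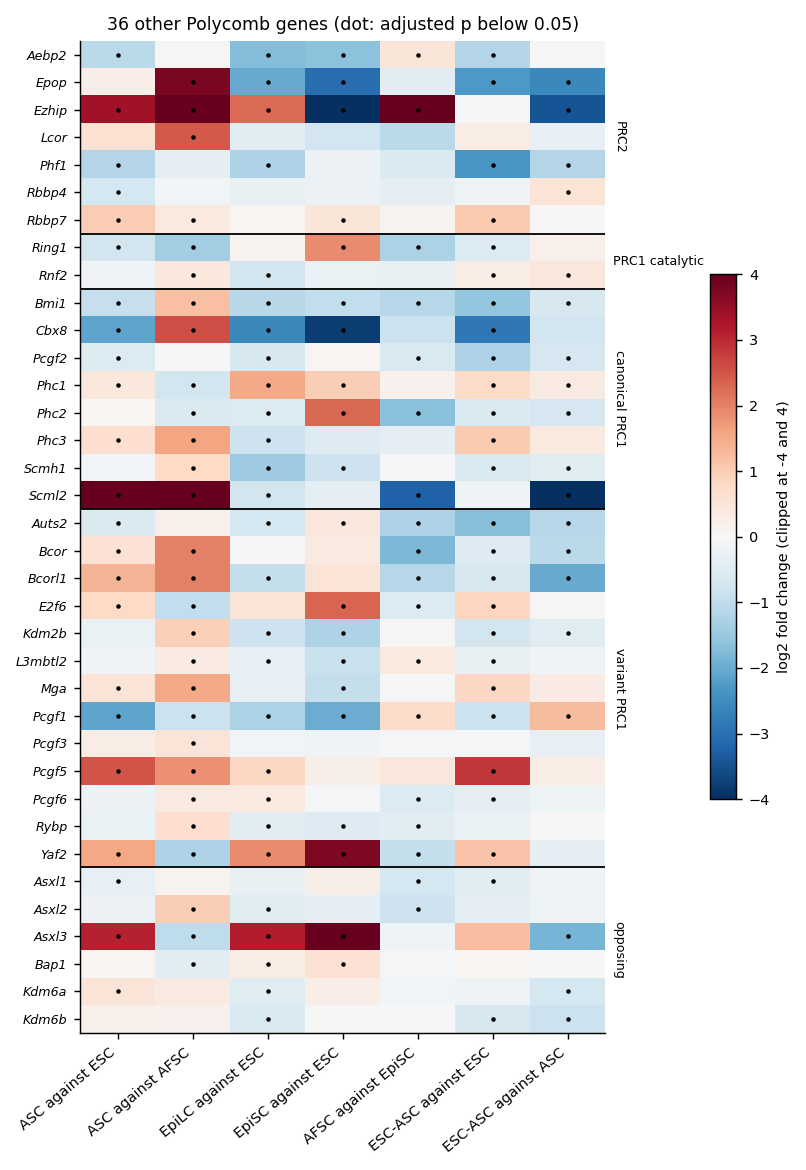
Log2 fold change (colour, clipped at -4 and 4) of 36 other Polycomb genes (rows, by complex) in 7 comparisons (columns). Dots mark genes called at an adjusted p below 0.05; 7 of the 8 canonical PRC1 genes drawn are blue in EpiLC against ESC, and Scml2 and Ezhip are red in both ASC columns.

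Genes known as bound by Polycomb proteins in embryonic stem cells had few counts in most samples. Of 10 such genes 5 failed the filter on low counts, with highest counts of 6 for Pax3, 7 for Pax7, 3 for Olig2, 9 for Nkx2-2 and 13 for Lhx5 in any sample. Of the 5 tested, 3 were called in ASC against ESC (2 higher, 1 lower, where 50.3% of all genes were called), 4 in ASC against AFSC (all higher, 64.0%), 4 in EpiLC against ESC (2 higher, 2 lower, 55.3%) and 2 in EpiSC against ESC (both lower, 61.2%). In AFSC against EpiSC 1 was called (lower, 39.4%), in ESC-ASC against ESC 2 (both lower, 60.1%) and in ESC-ASC against ASC 5 (1 higher, 4 lower, 50.7%). Hand1, a mesoderm and trophoblast regulator, had 62 to 87 counts in the ASC samples, 0 or 1 in ESC, and 7 or fewer in every other sample. Msx1 had 59 to 63 counts in ASC and 1 to 8 in ESC (3.09 ± 0.34 SE, adjusted p = 5.83e-07). Cdx2 was at 94.9 ± 21.0 in ESC, 51.1 ± 8.81 in ASC and 3.64 ± 1.65 in EpiSC, lower in EpiSC than in ESC by -4.67 ± 0.35 SE (adjusted p = 6.97e-10). With 4 to 13 counts in the EpiSC samples, the size of this fall is known only coarsely. Neurog1, lower in EpiSC than in ESC (-1.25 ± 0.52 SE, adjusted p = 0.0482), had 4 to 13 counts in ESC, 5 or 6 in EpiSC and 0 in AFSC, which allows up to 3 counts per sample.

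The genes whose log2 levels were most like each member over the 18 samples, members left out, were Acap1 (r = 0.981) and Esco2 (0.977) for Ezh1, Gemin2 (0.945) and Gm26625 (0.941) for Ezh2, and Vps35 (0.970) and Npepps (0.969) for Eed. For Suz12 they were Oas2 (0.986) and Flvcr2 (0.983), for Jarid2 Kcnf1 (0.971) and Gm15270 (0.967), for Mtf2 Pias2 (0.963) and Phtf2 (0.961), and for Phf19 Ubash3b (0.968) and BC004004 (0.938). For the CBX genes they were Hsph1 (0.932) and Supt5 (0.922) for Cbx2, Armc7 and Xpot (both 0.883) for Cbx6, and Xlr3b (0.958) and Pml (0.954) for Cbx7. Gm26625 shares exonic bases with Ezh2. The samples share groups and depth, and these genes were the highest of all genes tested.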

How the data were processed

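RNA-seq libraries were made by the authors with a directional kit from polyA-selected RNA and sequenced as read pairs. Per the study's methods, TopHat2 placed the reads on GRCm38 with the gene models of Ensembl release 86. The deposited values are raw counts per gene, whole numbers from featureCounts 1.5.0-p1 (per the file headers), and were counted without use of strand. Groups followed the labels, which do not match the group in some file names. Symbols were found for 35514 of 35773 gene IDs.

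The 16901 genes that reached a count of 10 in 3 or more samples were fitted in 1 model of all 18 samples with edgeR 4.0.16 (TMM, robust quasi-likelihood, R 4.3.3), with Benjamini-Hochberg adjustment over all genes within each comparison; SE and 95% intervals came from that fit. Levels used DESeq2 1.42.0 size factors and exonic length. On simulated counts for ASC against ESC, with 200 changed genes, the test found 82% of 2-fold and 100% of 4-fold changes, and 1.62% of its calls were false. The simulation gave every gene the same dispersion, had no sample that stood apart, and drew its changed genes from those with higher expected counts. The real data differ in each of these, so the rates may not hold for them, least of all at low counts such as those of Phf19. Alternatives were other normalizations, filters and tests, a replicate block, thinned ESC-ASC counts, fits of 2 groups and fits without 1 sample.

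The members and gene lists were chosen with earlier results of these data known, and no list was tested as a set. All members are named; of the other Polycomb genes, the 3 largest called rises and the 3 largest called falls in each of 7 comparisons; of the Polycomb-bound genes, the 2 with the largest change in ASC and in EpiSC against ESC; and the 2 genes most correlated with each member, on log2(level + 1). The results for 1 listed gene are not reported here. RefSeq promoter windows matched 9 of the 10 members. Intervals and floors cover counting error and the spread between samples only.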

Additional observations from a re-analysis of the deposited data

Results flagged for a closer look

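For 6 of the 10 genes the change in ABCL differed by starting cell, as the log2 fold change of ASC against AFSC minus that of ESC-ASC against ESC (edgeR quasi-likelihood test, adjusted over 16901 genes, 58.5% of which were called). The difference was 1.97 for Jarid2 (adjusted p = 1.68e-08), 1.92 for Mtf2 (1.84e-05), 1.68 for Cbx2 (2.25e-05), 1.61 for Suz12 (3.89e-06), 1.08 for Cbx7 (6.27e-05) and -3.57 for Phf19 (5.21e-07). All 6 calls were also made without the sample that stood apart in each group. That fit keeps the most alike samples and so narrows the spread, which makes this no further support. The number stayed at 6 with DESeq2 and with ESC-ASC thinned to the depth of the others. For Suz12 and Mtf2 the starting cells differed (AFSC against ESC -1.53 and -1.86), while ESC-ASC against ASC was -0.08 and -0.06 and not called. Their differences thus lay mostly in the starting levels. For Phf19 too the starting levels were the larger part (AFSC against ESC 2.8, ESC-ASC against ASC 0.77), and its ESC level rests on 5 to 9 counts per sample. The same 2 values were -1.11 and -0.57 for Cbx2, -0.64 and -0.44 for Cbx7, and -0.75 and -1.23 for Jarid2. ESC-ASC was counted in a separate run, which cannot be told apart from the group. Groups of 3 are too small for a test of single outlying samples.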

How the results depend on the processing

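In the 7 comparisons and in the difference between the changes in ABCL from AFSC and from ESC, no called member value changed direction under any alternative. Direction was not followed in the other pairs of groups. In ASC against ESC, 8 members rather than 4 were called without the sample that stood apart in each group. That alternative was chosen after seeing the data and keeps the most alike samples of each group, which narrows their spread. The cause was not tested. With 1 sample left out at a time, the members called ranged from 3 to 5 in ASC against ESC, 8 to 10 in ASC against AFSC, 4 to 6 in EpiLC against ESC, 7 to 8 in EpiSC against ESC, 6 to 8 in AFSC against EpiSC, 6 to 10 in ESC-ASC against ESC and 6 to 7 in ESC-ASC against ASC. The 10 members that differed among the 6 groups were 10 in each of these fits, and the calls over the 15 pairs ranged from 98 to 108.

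The main fit did not treat samples with the same replicate number as paired. Deviations from the group means correlated by 0.0924 on average over 45 pairs of samples with the same number. Over 90 pairs with different numbers the average was -0.0435. A correlation above 0.1 was found in 21 of the 45 pairs and in 22 of the 90, and 7 of 18 samples correlated best with their own number. What samples with the same number share was not tested. With the replicate as a block, 111 rather than 105 of the 150 member comparisons were called, 8 rather than 7 members in AFSC against EpiSC and 9 rather than 8 in ESC-ASC against ESC, the added member being Mtf2 in both. Computed from counts without division by exonic length, the shares of Ezh1 and Mtf2 moved by more than 1 SD in 11 of 12 cases; those of Phf1 are given above. Depth limits the values of Phf19 in ESC and of Cbx8, Asxl3, Ezhip, Scml2, Hand1, Msx1, Cdx2 and Neurog1, which each had fewer than 10 counts in some samples.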
